A study of Homo sapiens with 4 samples.

Results

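Collagens and laminins are the genes described here. The members were every gene of the deposited intron tables whose symbol is COL, a number, A and a number, or LAM, one of the letters A, B and C, and a number. The rule uses names only and found 53 of 15902 genes, of which 43 are collagens and 10 are laminins, with 2168 of 142206 listed introns. Both groups were SUM159 cells, a human line established from a breast tumour, mesenchymal in appearance, and in both the cytoplasm was separated and its polyadenylated RNA sequenced with strand-specific libraries. The treated group had received H3B-8800, which inhibits the spliceosome, for 12 hours, and the control group had received its vehicle DMSO for 12 hours. Each group had 2 libraries, labelled as biological replicates, of 1 cell line. The comparison addresses how spliceosome inhibition altered the processed and the intron-containing RNA of these genes in the cytoplasm.

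Collagens are extracellular proteins whose chains wind into a helix of repeated glycine-X-Y units, and their genes are divided into many short exons. The fibrillar collagens build fibrils, collagen IV builds the network of basement membranes, collagen VI forms beaded filaments around cells and collagen VII anchors epithelia to the tissue underneath. Laminins are cross-shaped assemblies of an alpha, a beta and a gamma chain that organise basement membranes and bind cells through integrins and dystroglycan.

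Reads lying inside each intron, called intronic reads, were given by the files, which also allowed the reads that span it, called spliced reads, to be computed. The members had 16106 and 17942 spliced reads in the H3B-8800 libraries and 23357 and 23320 in the DMSO libraries, and 3115 and 3487 intronic reads in H3B-8800 cells against 2234 and 2382 in DMSO cells. Library totals were 58000000 to 64000000 reads. A read that spans several introns was counted at each of them, and probably both mates of a pair were counted, so these sums are not numbers of molecules. In COL4A3, a collagen IV chain, the 29 spliced reads of DMSO replicate 1 were exactly 1 read at each of 29 introns. ESR1 and PGR, receptors that triple-negative lines lack, had 0 spliced reads in all 4 libraries. The receptor gene ERBB2, expected to be low in such lines, had 382 and 387 in H3B-8800 cells against 564 and 529 in DMSO cells. The epithelial cadherin gene CDH1 had 1 and 0 in H3B-8800 cells against 0 and 1 in DMSO cells. The mesenchymal filament gene VIM had 58892 and 61117 in H3B-8800 cells against 87321 and 85920 in DMSO cells. Of the other mesenchymal markers, the cadherin gene CDH2 had 1169 and 1224 in H3B-8800 cells against 845 and 757 in DMSO cells, and ZEB1 had 88 and 111 in H3B-8800 cells against 108 and 120 in DMSO cells. Scaled to library size, VIM (log2 change -0.26) and ERBB2 (-0.24) passed as lower and CDH2 as higher (0.85), and ZEB1 did not pass (0.07; edgeR, adjusted p under 0.05). Of the markers of other cells, the fibroblast gene LUM had 2 and 1 spliced reads in H3B-8800 cells against 0 and 0 in DMSO cells, and the endothelial gene PECAM1 had 57 and 33 in H3B-8800 cells against 38 and 27 in DMSO cells.

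The members had a median of 38 listed introns per gene, against 6 over all genes, and their introns had a median length of 863 bp, against 1459 bp over all. In GENCODE release 29, 443 of 1867 internal exons of the collagen members were 54 bp long (23.7%), against 0 of 391 in the laminins and 0.441% of 147462 in other genes. Of the coding introns of the collagens, 1139 of 1746 (65.2%) lay between codons and were followed by an exon that starts with GG, the start of a glycine codon. The share was 3.06% of 392 in the laminins and 3.53% of 133934 in other genes. These exons are shown to make the repeat visible. Each is 54 bases long and is printed from the GENCODE release 29 transcript on hg38. Capitals mark the glycine codons of the repeat, GGN, read in frame.
COL1A1 exon 8: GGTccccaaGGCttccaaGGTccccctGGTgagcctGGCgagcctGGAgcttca
COL5A2 exon 6: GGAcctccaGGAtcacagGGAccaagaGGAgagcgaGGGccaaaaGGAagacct
COL13A1 exon 17: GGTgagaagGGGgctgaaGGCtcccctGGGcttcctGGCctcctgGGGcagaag
COL1A1 exon 8 lies at chr17:50197949-50198002 on the minus strand, COL5A2 exon 6 at chr2:189097277-189097330 on the minus strand and COL13A1 exon 17 at chr10:69921882-69921935 on the plus strand. In each of the 3 exons, 6 of 18 codons are GGN, evenly spaced. Not every 54-base exon has this spacing. COL7A1 exon 38, not shown, has 7 GGN codons of 18, and they are not evenly spaced.

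Junctions of introns whose intronic reads differed strongly are shown next, since they place the results in the coding sequence. Each line gives the last 24 bases of the upstream exon in lower case and the first 24 bases of the downstream exon in capitals, so the intron lay between the lower-case and the capital letters.
COL4A6 intron 3: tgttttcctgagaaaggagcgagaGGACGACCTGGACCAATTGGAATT
COL4A6 intron 6: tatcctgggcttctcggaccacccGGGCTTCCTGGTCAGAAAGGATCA
COL4A6 intron 7: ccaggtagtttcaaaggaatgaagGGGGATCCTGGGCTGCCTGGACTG
COL4A6 intron 8: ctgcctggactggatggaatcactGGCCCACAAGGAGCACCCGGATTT
COL4A5 intron 21: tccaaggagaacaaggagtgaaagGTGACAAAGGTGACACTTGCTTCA
COL21A1 intron 17: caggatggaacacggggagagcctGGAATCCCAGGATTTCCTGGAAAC
COL7A1 intron 113: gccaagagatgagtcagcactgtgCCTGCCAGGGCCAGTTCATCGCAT
LAMB1 intron 22: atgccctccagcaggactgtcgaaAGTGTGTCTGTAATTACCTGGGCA
The COL4A6 introns lie on the minus strand of hg38, intron 3 at chrX:108221375-108310747, intron 6 at chrX:108211741-108214111, intron 7 at chrX:108210005-108211671 and intron 8 at chrX:108206581-108209968. Those of the other genes lie at chrX:108591645-108595508 on the plus strand (COL4A5), and on the minus strand at chr6:56077574-56101471 (COL21A1), chr3:48565669-48566266 (COL7A1) and chr7:107952224-107953529 (LAMB1). In the COL4A6 and COL21A1 junctions shown, the downstream exon opens with a glycine codon, whereas the junctions of COL4A5, COL7A1 and LAMB1 split a codon.

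Spliced collagen and laminin RNA was lower in more genes than it was higher after H3B-8800. The largest falls were in the transmembrane collagen COL13A1 and in COL27A1, COL7A1, COL4A6 and COL17A1, and the largest rise was in COL21A1. Of the 53 members, 28 had a mean of at least 1 CPM (spliced counts scaled to equal library size) and were tested. Among them 7 passed as higher and 13 as lower, and 8 did not pass (edgeR's quasi-likelihood test over 9468 genes, Benjamini-Hochberg adjusted p under 0.05). Over all genes tested, 32.8% passed as higher and 32.7% as lower. The median change of the tested members was -0.22 on the log2 scale, against 0.01 over all genes. The values of the groups did not overlap in 22 of the 28, against 82.5% of all genes. In bulk RNA, fewer cells that express a gene and less RNA per cell cannot be told apart. An exact two-sided permutation test of a single value cannot go below p = 0.333 with 2 libraries in each group, so calls rest on the spread that edgeR shares across genes.

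**Figure D1:**
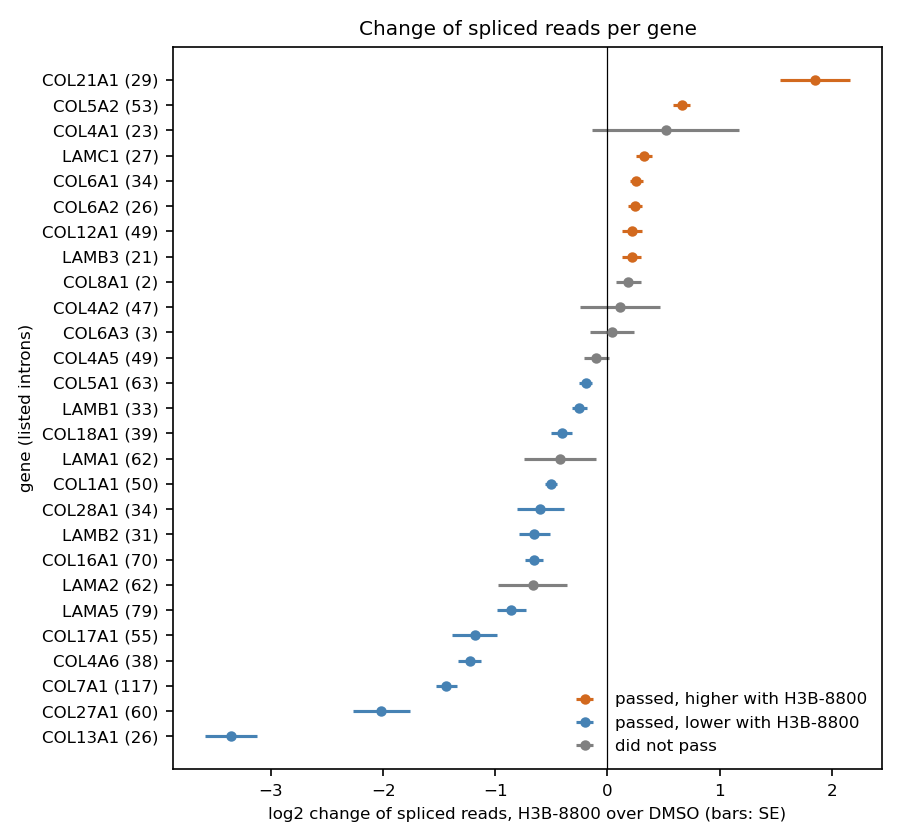
Change of spliced reads per gene on the log2 scale (x axis, H3B-8800 over DMSO, edgeR estimate with bars of 1 SE) for 27 of the 28 tested collagen and laminin genes (y axis, with the number of listed introns), 2 libraries per group. Orange genes passed as higher (7), blue as lower (13) and grey did not pass (7); COL13A1 lies lowest at -3.36 and COL21A1 highest at 1.85.

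The members have many introns, and genes with many introns fell more often in general. Among all tested genes with at least 20 listed introns, 25.8% passed as higher and 46.3% as lower, and the 26 tested members in that class had 7 (26.9%) and 13 (50.0%). The members' shares were therefore near those of other genes with as many introns. Across genes, Spearman's rho between intron number and log2 change was -0.51 over the 28 members and -0.13 over 9468 genes, a description in which the points share the same 4 libraries and in which genes are not independent.

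**Figure D2:**
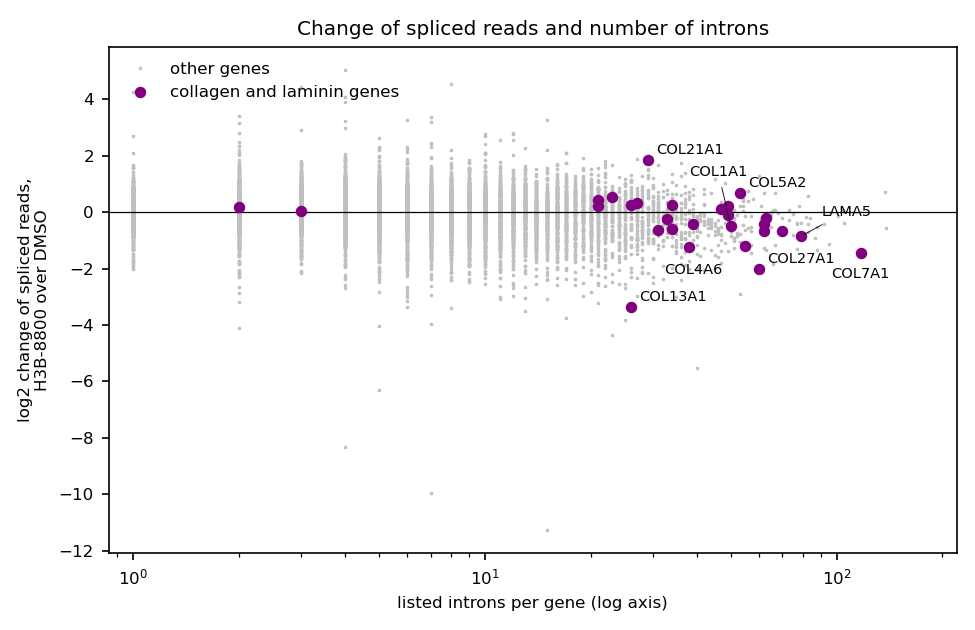
Change of spliced reads on the log2 scale (y axis, H3B-8800 over DMSO) against the number of listed introns per gene (x axis, log axis) for all 9468 tested genes (grey) and the 28 tested collagens and laminins (purple). Of the 26 members with at least 20 introns, 13 passed as lower and 7 as higher.

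Per listed intron, spliced levels over all libraries were highest in COL8A1 and lowest in COL4A1 and LAMA2. COL8A1, a short-chain collagen of vessel walls, had 11.1 and 11.4 CPM per listed intron in H3B-8800 cells against 10.1 and 9.71 in DMSO cells. COL6A2 followed with 7.99 and 8.19 CPM per listed intron in H3B-8800 cells against 7.14 and 6.48 in DMSO cells, and COL1A1 with 5.40 and 5.93 against 8.21 and 7.81. COL6A1 and COL5A1 were next over all libraries. COL8A1 did not pass the test (log2 change 0.19, SE 0.11; edgeR adjusted p = 0.17), although its groups did not overlap.

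**Figure D3:**
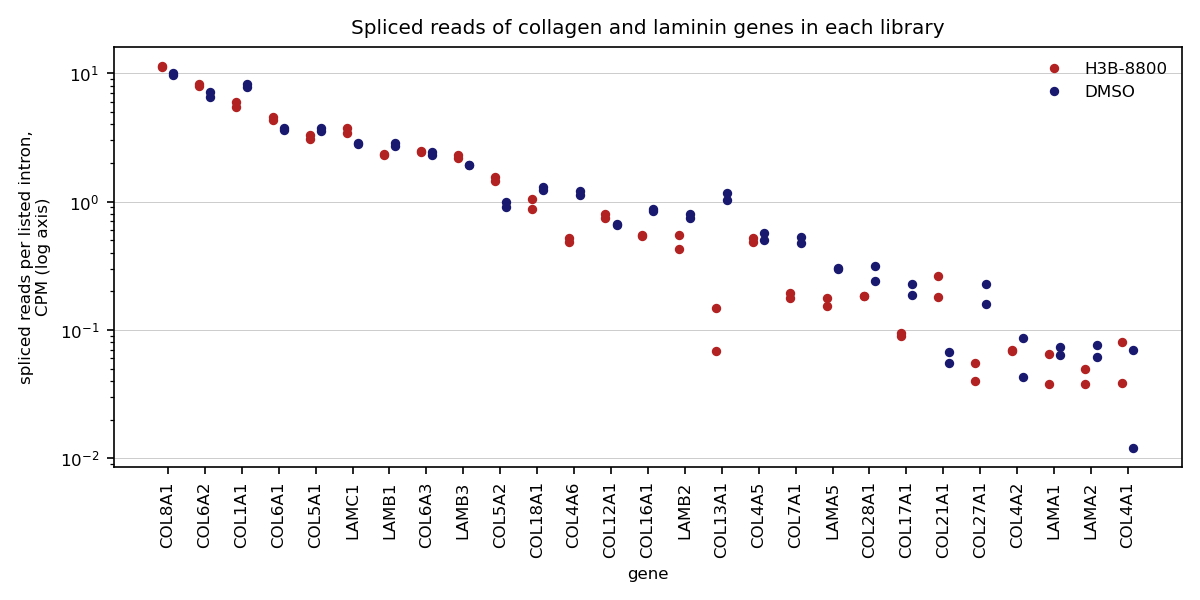
Spliced reads per listed intron in CPM (y axis, log axis) for 27 of the 28 tested collagen and laminin genes (x axis, ordered by level), with 1 point per library, H3B-8800 in red and DMSO in dark blue. The groups are far apart in COL13A1, COL27A1 and COL21A1.

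Among the fibrillar collagens, 3 of the 4 tested fell and 1 rose. COL1A1, the alpha 1 chain of type I collagen, had 3089 and 3681 spliced reads in H3B-8800 cells against 5901 and 5614 in DMSO cells. This is 283 ± 18.7 CPM with H3B-8800 and 401 ± 14.0 CPM with DMSO (SD, n = 2 each). The log2 change was -0.50 (SE 0.054; edgeR adjusted p = 2.9e-06). Its partner chain COL1A2 had 1 and 0 spliced reads in H3B-8800 cells against 2 and 3 in DMSO cells and was not tested. COL5A1 and COL5A2 encode the chains of type V collagen, which starts fibrils, and their directions differed. COL5A1 had 2224 and 2576 spliced reads in H3B-8800 cells against 3198 and 3413 in DMSO cells (log2 change -0.19, SE 0.057; edgeR adjusted p = 0.0086), and did not pass without H3B-8800 replicate 1 (adjusted p = 0.11) or DMSO replicate 2 (0.078). COL5A2 had 882 and 1017 in H3B-8800 cells against 693 and 753 in DMSO cells, with a log2 change of 0.66 (SE 0.078; edgeR adjusted p = 6.7e-06). In COL5A2 the groups did not overlap, even in raw reads. COL27A1, a fibrillar collagen of cartilage, had 38 and 30 spliced reads in H3B-8800 cells against 137 and 196 in DMSO cells, a 4.04-fold fall (log2 change -2.02, SE 0.26; edgeR adjusted p = 1.3e-05).

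COL13A1 and COL17A1, which span the cell membrane, both fell. COL13A1 had 44 and 22 spliced reads in H3B-8800 cells against 383 and 437 in DMSO cells, or 2.81 ± 1.47 CPM against 28.5 ± 2.66 CPM (SD, n = 2 each). This 10.2-fold fall was the largest of the tested members (log2 change -3.36, SE 0.23; edgeR adjusted p = 4.0e-08). COL17A1, a component of hemidesmosomes, had 59 and 61 spliced reads in H3B-8800 cells against 148 and 181 in DMSO cells (log2 change -1.18, SE 0.20). COL7A1, which forms anchoring fibrils and has 117 listed introns, had 235 and 283 in H3B-8800 cells against 802 and 886 in DMSO cells. Its 2.71-fold fall had a log2 change of -1.44 (SE 0.096; edgeR adjusted p = 3.5e-08).

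Of the fibril-associated collagens, which decorate fibrils, COL21A1 and COL12A1 were higher and COL16A1 was lower. COL21A1 had 60 and 94 spliced reads in H3B-8800 cells against 28 and 23 in DMSO cells, a 3.61-fold rise (log2 change 1.85, SE 0.31; edgeR adjusted p = 0.00016). COL16A1 had 440 and 469 in H3B-8800 cells against 852 and 872 in DMSO cells (log2 change -0.65, SE 0.079). COL12A1 passed narrowly, with 451 and 453 spliced reads in H3B-8800 cells against 466 and 470 in DMSO cells (log2 change 0.22, SE 0.090; edgeR adjusted p = 0.046), and did not pass in 10 of 11 other settings, among them each setting without 1 library except that without H3B-8800 replicate 2. COL18A1, the precursor of endostatin, had 388 and 504 in H3B-8800 cells against 691 and 732 in DMSO cells (log2 change -0.41, SE 0.096). COL28A1, a beaded collagen, had 71 and 77 in H3B-8800 cells against 117 and 153 in DMSO cells (log2 change -0.60, SE 0.21; edgeR adjusted p = 0.022). It did not pass without H3B-8800 replicate 1 (adjusted p = 0.10), H3B-8800 replicate 2 (0.12) or DMSO replicate 2 (0.21).

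Of the basement membrane and beaded-filament collagens, the collagen IV chain COL4A6 fell and the collagen VI chains COL6A1 and COL6A2 rose. COL4A6 had 209 and 245 spliced reads in H3B-8800 cells against 618 and 664 in DMSO cells (log2 change -1.23, SE 0.099; edgeR adjusted p = 1.8e-07). The neighbouring COL4A5 on the X chromosome, which lies head to head with it, had 291 and 293 in H3B-8800 cells against 404 and 351 in DMSO cells and did not pass (log2 change -0.10, SE 0.11; adjusted p = 0.45). COL4A1 and COL4A2, the chains of most basement membranes, were low, at 21 and 11 spliced reads in H3B-8800 cells against 23 and 4 in DMSO cells for COL4A1. Only 23 of the 51 introns of COL4A1 were listed, so its sums cover part of the gene. COL6A1 had 1764 and 1806 in H3B-8800 cells against 1829 and 1770 in DMSO cells (log2 change 0.26, SE 0.061; edgeR adjusted p = 0.0021). COL6A2 had 2374 and 2642 in H3B-8800 cells against 2670 and 2422 in DMSO cells (log2 change 0.25, SE 0.059). In raw reads the groups overlapped in COL6A1 and COL6A2, and they separated after scaling. COL6A2 did not pass without H3B-8800 replicate 2 (adjusted p = 0.064) or without DMSO replicate 2 (0.061). COL6A3 was listed with 3 of 43 introns and did not pass.

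The laminin chains did not move together. LAMA5 had 138 and 174 spliced reads in H3B-8800 cells against 336 and 345 in DMSO cells, a log2 change of -0.86 (SE 0.13; edgeR adjusted p = 6.0e-05). The other alpha chains tested, LAMA1 and LAMA2, did not pass. LAMB2, the beta chain of synaptic and kidney basement membranes, had 152 and 212 in H3B-8800 cells against 333 and 354 in DMSO cells (log2 change -0.65, SE 0.14). LAMB1, the widespread beta chain, had 876 and 959 in H3B-8800 cells against 1351 and 1279 in DMSO cells (log2 change -0.25, SE 0.069; edgeR adjusted p = 0.0061), and did not pass without DMSO replicate 1 (adjusted p = 0.060). LAMC1, the gamma chain that pairs with both, had 1147 and 1137 in H3B-8800 cells against 1084 and 1115 in DMSO cells and was higher by 0.33 (SE 0.072; edgeR adjusted p = 0.0013). LAMB3, a beta chain of the laminin of hemidesmosomes, had 521 and 600 in H3B-8800 cells against 577 and 585 in DMSO cells (log2 change 0.22, SE 0.083; edgeR adjusted p = 0.034) and did not pass without H3B-8800 replicate 2 (adjusted p = 0.12), DMSO replicate 1 (0.15) or DMSO replicate 2 (0.12).

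The rises depended on scaling more than the falls did, which was general and not particular to these genes. With libraries scaled to their total reads, the median of all tested genes moved from 0.01 to -0.16 on the log2 scale. Over all genes 2230 then passed as higher and 3927 as lower, against 3102 and 3097 with TMM scaling. Of the members, 2 passed as higher, COL21A1 and COL5A2. All 20 called members kept their direction under that scaling. COL6A1, COL6A2, COL12A1, LAMB3 and LAMC1 then did not pass.

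The 25 members below the filter were not tested. Among them 12 had no spliced read in any library, which were COL14A1, COL15A1, COL19A1, COL20A1, COL22A1, COL25A1, COL26A1, COL2A1, COL6A5, COL6A6, COL8A2 and LAMB4. The other 13 were COL10A1, COL11A1, COL1A2, COL23A1, COL24A1, COL3A1, COL4A3, COL4A4, COL5A3, COL9A1, COL9A2, COL9A3 and LAMC3. COL24A1, a fibrillar collagen, had 16 and 5 spliced reads in H3B-8800 cells against 0 and 4 in DMSO cells.

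Intronic reads were sparse and concentrated. No intronic read was seen in any library in 1703 of the 2168 member introns (78.6%), and the 49 introns with a mean of at least 10 held 75.9% of the members' intronic reads. Intronic reads made up 16.2% and 16.3% of the members' intronic plus spliced reads in H3B-8800 cells against 8.73% and 9.27% in DMSO cells. In introns of other genes the shares were 8.18% and 8.23% in H3B-8800 cells against 4.23% and 4.23% in DMSO cells. Among introns that no annotated exon overlaps, the members had 10.2% and 10.3% in H3B-8800 cells against 4.71% and 4.68% in DMSO cells, and other genes 5.22% and 5.30% in H3B-8800 cells against 2.10% and 2.06% in DMSO cells. COL4A6 carried much of the members' level, and without it their shares were 12.5% and 12.8% in H3B-8800 cells against 6.65% and 7.11% in DMSO cells.

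Of the 49 introns tested, in 18 genes, intronic reads were higher with H3B-8800 in 14 and lower in 8, and 27 did not pass (edgeR adjusted p under 0.05 over 12013 introns). Over all introns tested, 48.2% passed as higher and 5.74% as lower. With TMM scaling of the intronic reads, which centres their change near 0, 9 member introns passed as higher and 18 as lower, against 21.4% and 19.3% of all introns tested, so the balance turned. COL5A1 intron 4 and LAMB1 intron 24, both called higher, then had log2 changes of -0.033 and -0.028. The 49 member introns had a median log2 change of 0.25, against 1.13 over all introns. Long introns rose less often in general, since 28.4% of all tested introns over 10000 bp passed as higher, and 4 of the 14 such member introns did. Among introns of over 1000 and up to 10000 bp, 9 of 30 member introns (30.0%) and 53.1% of all passed as higher. When 1 H3B-8800 library was left out, whichever it was, the test lost its power over all introns, members and others alike. It therefore cannot show which calls hold. The median log2 change of the member introns was then 0.34 without replicate 1 and 0.26 without replicate 2, against 0.99 and 0.94 over all introns.

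The ratio of intronic to spliced reads of the same intron, which does not depend on library scaling, was tested in 27 member introns of 12 genes with at least 10 reads of each kind on average. It rose in 8 and fell in 1, against 56.5% and 2.88% of the 9937 introns tested (edgeR adjusted p under 0.05). The median log2 change was 0.36 over the member introns, against 1.62 over all.

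**Figure D4:**
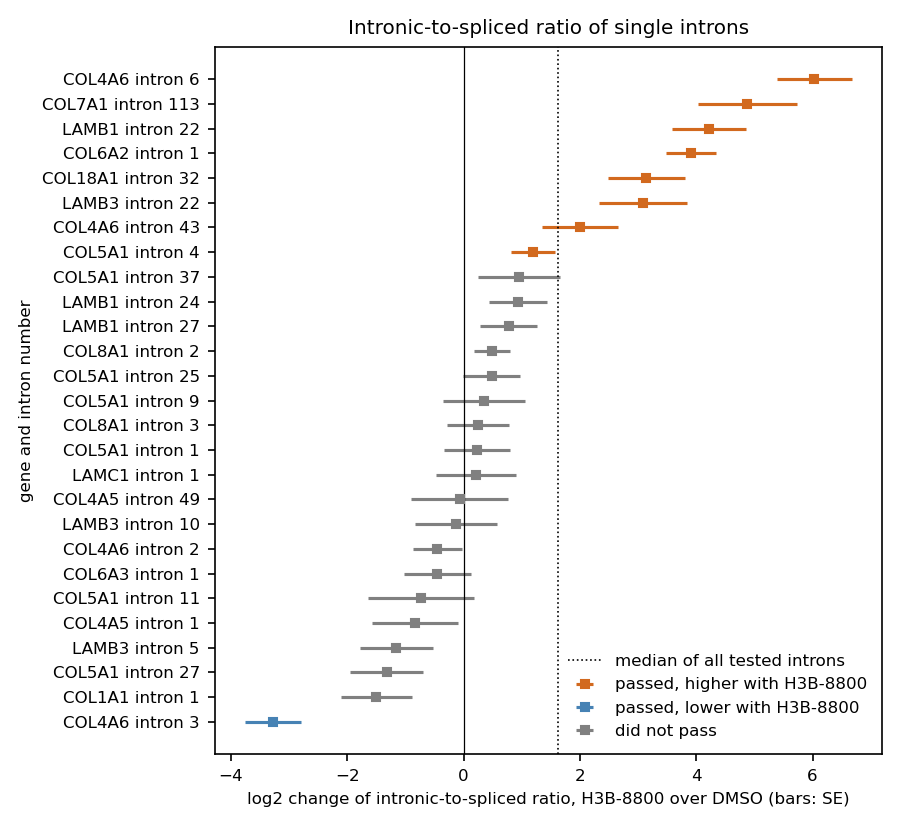
Change of the intronic-to-spliced ratio on the log2 scale (x axis, H3B-8800 over DMSO, edgeR estimate with bars of 1 SE) for the 27 tested introns of collagen and laminin genes (y axis). The dotted line marks the median of all 9937 tested introns, 1.62; 8 member introns passed as higher, 1 as lower and 18 did not pass.

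Summed per gene, the ratio rose in 13 of 24 tested members and fell in 0, against 65.4% and 2.35% of the 7566 genes tested. No member had a fall at an unadjusted p under 0.05, and DESeq2 also called 0. The median log2 change was 0.99 over the members, against 1.35 over all. The rises of COL12A1, COL17A1, COL6A1 and LAMB2 did not pass when 1 library was left out (COL12A1 adjusted p = 0.076 and COL17A1 0.11 without H3B-8800 replicate 1, COL6A1 0.25 without H3B-8800 replicate 2, LAMB2 0.11 without H3B-8800 replicate 1). In introns that no annotated exon overlaps, COL17A1, COL5A1, COL6A2, LAMA5 and LAMB2 did not pass either. In COL27A1 intronic reads made up 68.9% and 81.5% of intronic plus spliced reads in H3B-8800 cells against 21.3% and 24.6% in DMSO cells (log2 change of the ratio 3.38, SE 0.42). In COL7A1 they made up 29.9% and 29.8% in H3B-8800 cells against 7.39% and 7.90% in DMSO cells (2.36, SE 0.27). COL1A1 did not pass, at 0.707% and 0.675% in H3B-8800 cells against 0.773% and 0.725% in DMSO cells (log2 change of the ratio -0.12, SE 0.29; edgeR adjusted p = 0.735).

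COL4A6 held the most intronic reads of any member and changed in opposite ways along its length. Intron 6 had 362 and 395 intronic reads in H3B-8800 cells against 106 and 116 in DMSO cells, while its spliced reads were 1 and 1 in H3B-8800 cells against 18 and 25 in DMSO cells. The log2 change of its ratio was 6.03 (SE 0.64; edgeR adjusted p = 1.8e-05). Intron 7 had 80 and 76 intronic reads in H3B-8800 cells against 12 and 10 in DMSO cells, and intron 8 had 216 and 246 in H3B-8800 cells against 32 and 32 in DMSO cells. Both passed the test of intronic reads (log2 changes 2.91 and 2.94). In the very long intron 3, intronic reads were 24 and 28 in H3B-8800 cells against 237 and 272 in DMSO cells, and the ratio fell by 3.28 (SE 0.48; edgeR adjusted p = 0.00017). Intron 6 overlaps an annotated retained-intron transcript of COL4A6 and intron 3 overlaps an exon of another COL4A6 transcript, so intronic reads there may be exonic reads of those transcripts, which was not tested. Introns 7 and 8 overlap no annotated exon. Near the end of the gene, intron 43 had 26 and 11 intronic reads in H3B-8800 cells against 12 and 18 in DMSO cells. These groups overlap, and its intronic reads did not pass (log2 change 0.41). Its spliced reads were 15 and 14 in H3B-8800 cells against 43 and 55 in DMSO cells. The ratio of intron 43 passed as higher (log2 change 2.00, SE 0.65; edgeR adjusted p = 0.020).

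Spliced reads also differed along COL4A6. Before intron 6 they were 55 and 67 in H3B-8800 cells against 62 and 65 in DMSO cells, a scaled log2 difference of 0.21. At introns 6 to 8 they were 5 and 5 in H3B-8800 cells against 37 and 42 in DMSO cells, a difference of -2.71. After intron 8 they were 149 and 173 in H3B-8800 cells against 519 and 557 in DMSO cells, a difference of -1.47. These stretches were chosen after the values were seen and were not tested.

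**Figure D5:**
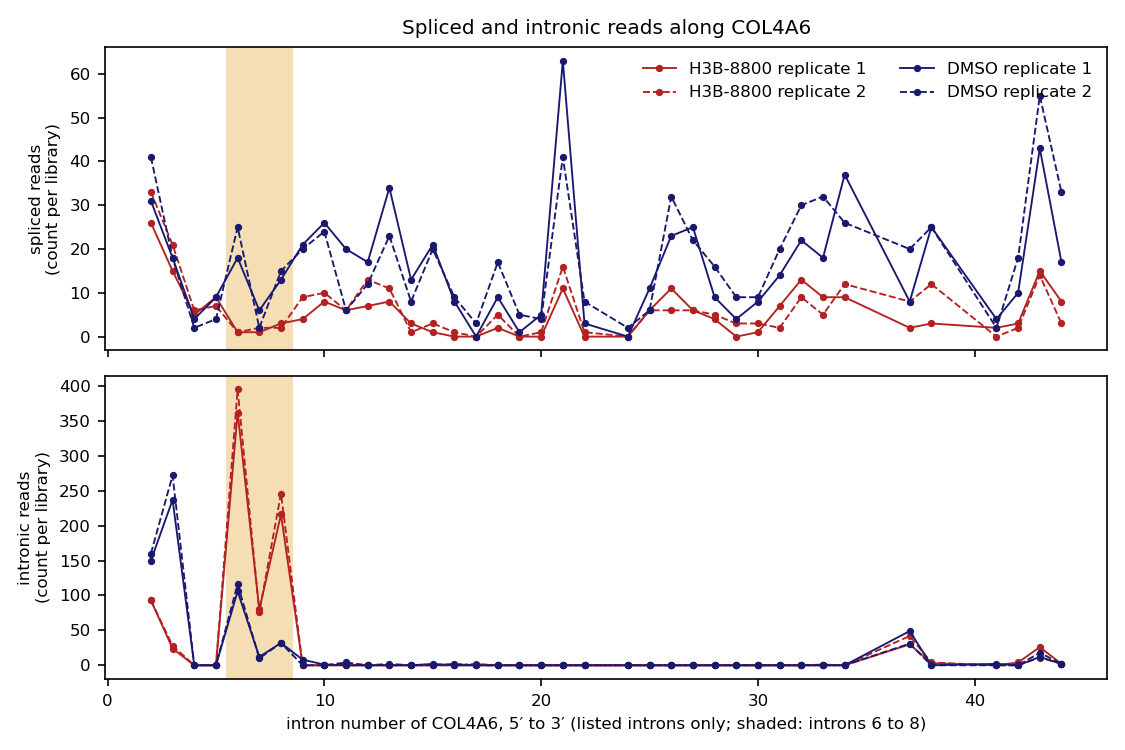
Spliced reads (top, y axis in counts per library) and intronic reads (bottom, same unit) at each listed intron of COL4A6 (x axis, intron number from 5′ to 3′), with H3B-8800 in red, DMSO in dark blue, replicate 1 solid and replicate 2 dashed. In the shaded introns 6 to 8 intronic reads are higher and spliced reads lower with H3B-8800, and intron 3 has more intronic reads with DMSO.

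Single introns of other members stood out in the test of intronic reads or in that of the ratio. COL4A5 intron 21 had 90 and 120 intronic reads in H3B-8800 cells against 2 and 0 in DMSO cells. Scaled to library totals, its intronic reads were 112-fold higher with H3B-8800 (exact 95% counting interval 30.6 to 931). The interval covers counting error only and is too narrow, since both mates were probably counted and the spread between libraries is not in it. The intron overlaps no annotated exon, although COL4A5 as a whole did not pass by spliced reads. The intronic-to-spliced ratio of intron 21 was not tested. COL6A2 intron 1, which lies outside the coding sequence and overlaps an exon of another COL6A2 transcript, had 169 and 166 in H3B-8800 cells against 12 and 16 in DMSO cells (log2 change of the ratio 3.91, SE 0.43; edgeR adjusted p = 2.1e-05). LAMB1 intron 22 had 61 and 59 in H3B-8800 cells against 6 and 4 in DMSO cells (4.22, SE 0.63). COL7A1 intron 113 had 32 and 45 in H3B-8800 cells against 6 and 4 in DMSO cells (4.88, SE 0.85; edgeR adjusted p = 0.00048). LAMB3 intron 22, its last, had 26 and 30 in H3B-8800 cells against 2 and 8 in DMSO cells (3.08, SE 0.75). COL18A1 intron 32 had 22 and 25 in H3B-8800 cells against 6 and 4 in DMSO cells (3.14, SE 0.66). However, it overlaps an exon of another COL18A1 transcript on the same strand. It also overlaps exons of SLC19A1 on the opposite strand, and the strand setting of the counting is not stated. The groups did not overlap in any of these introns. This is no added support, since the introns were named for small adjusted p from the same counts.

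A further 4 introns are named after their values were seen. COL21A1 intron 17 had 23 and 17 intronic reads in H3B-8800 cells against 0 and 0 in DMSO cells, at least 7.11-fold higher when each DMSO library is set to a floor of 3 reads. COL27A1 intron 12 had 28 and 28 in H3B-8800 cells against 0 and 4 in DMSO cells. COL28A1 intron 21 had 28 and 40 in H3B-8800 cells against 8 and 11 in DMSO cells. COL5A1 intron 4 had 217 and 217 in H3B-8800 cells against 107 and 123 in DMSO cells, and its ratio rose by 1.19 (SE 0.37; edgeR adjusted p = 0.016). The introns of COL21A1, COL27A1 and COL5A1 overlap exons of other transcripts of their own genes.

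Lower intronic reads were seen in 8 introns, of which 6 overlap an annotated exon, against 7 of the 14 raised introns. Their median length was 20717.5 bp, against 3626 bp for the raised ones. COL16A1 intron 56, which overlaps a retained-intron transcript, had 8 and 26 in H3B-8800 cells against 94 and 122 in DMSO cells (log2 change -2.57; edgeR adjusted p = 0.00039). COL4A6 intron 2 had 93 and 93 in H3B-8800 cells against 150 and 160 in DMSO cells. COL1A1 intron 1 had 6 and 2 in H3B-8800 cells against 25 and 17 in DMSO cells, and COL28A1 intron 27 had 7 and 2 in H3B-8800 cells against 32 and 16 in DMSO cells. LAMB3 intron 5 had 18 and 18 in H3B-8800 cells against 39 and 40 in DMSO cells. The introns of COL4A6, COL1A1, COL28A1 and LAMB3 named here did not pass with DESeq2 (adjusted p = 0.061 to 0.19).

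Some members changed more in the later part of the gene. Of 21 members with at least 10 introns and a mean of 20 reads in each of its earlier and later introns, the later introns were lower relative to the earlier ones in 16 and higher in 5. The median difference was -0.15 on the log2 scale, against -0.07 over 3298 genes, of which 2036 were lower and 1261 higher in the later introns, and this was not tested. COL27A1 had the widest difference, with a log2 change of -1.35 in its earlier introns and -2.85 in its later ones. COL5A2 rose by 0.72 in its earlier introns and by 0.59 in its later ones. With a cut after intron 5, chosen after the values were seen and not tested, it rose by 1.15 at introns 1 to 5. Spliced reads there were 136 and 125 in H3B-8800 cells against 74 and 68 in DMSO cells. At the introns after them it rose by 0.60.

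The genes that make, modify and bind these proteins were counted from 5 lists, beside 32.8% higher and 32.7% lower and a median log2 change of 0.01 over all genes tested. Of 17 tested genes of collagen synthesis and folding, 8 rose and 1 fell, with a median log2 change of 0.12. Among them CRTAP, part of the prolyl 3-hydroxylation complex, had 2009 and 2128 spliced reads in H3B-8800 cells against 1435 and 1415 in DMSO cells (log2 change 0.81, SE 0.059; edgeR adjusted p = 7.7e-08). PPIB, a collagen-folding isomerase of the same complex, rose by 0.48, while its hydroxylase P3H1, named after its values were seen, was the gene of the list that fell (log2 change -0.43, SE 0.090; edgeR adjusted p = 0.00095). PLOD2, a lysyl hydroxylase, rose by 0.54. With libraries scaled to total reads, 3 of the 17 rose and 5 fell. Over all 9468 genes tested, 2230 then rose and 3927 fell, against 3102 and 3097 with TMM scaling. The balance of the list thus moved towards falls, as that of all genes did.

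Of 9 tested genes of collagen processing and crosslinking, 1 rose and 3 fell (median -0.36), and the falls were the crosslinking oxidases LOXL2 (log2 change -0.78) and LOXL1 (-1.28) and the procollagen protease BMP1 (-0.55). Of 8 genes of matrix cleavage, 2 rose and 2 fell (median 0.42), among them the inhibitor TIMP1 (0.46) and the gelatinase MMP2 (0.44), which rose, and the protease CTSL (-0.38), which fell. Of 10 collagen and laminin receptors, 3 rose and 3 fell (median -0.06), shares near those of all genes. The laminin-binding integrin chain ITGA3 had 2697 and 3060 spliced reads in H3B-8800 cells against 6196 and 6240 in DMSO cells (log2 change -0.84, SE 0.047; edgeR adjusted p = 8.3e-09). Its partner ITGB1 had 5135 and 5465 in H3B-8800 cells against 3992 and 3757 in DMSO cells and rose by 0.72 (SE 0.048). The collagen-binding ITGA10 fell, with a log2 change of -1.14. Of 15 other matrix genes, 6 rose and 3 fell (median 0.33), and the collagen-binding SPARC (0.54), THBS1 (0.45) and TGFBI (0.33) were among the rises. With libraries scaled to total reads, 4 of these 15 rose and 5 fell, against 2230 and 3927 of all 9468 genes tested.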

How the data were processed

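Each library's deposited table listed introns with 2 read counts and an RPKM value, without a header. Per the submitters' processing notes, HISAT2 2.0.4 was used, and hg38 and mm10 are listed as builds; the counting method was not given in the sources used here. The deposited RPKM equalled the first count over intron length and library total, which gave the totals used here. That the first count is intronic and the excess of the second is spliced was inferred from the values. Intron coordinates are 1-based on hg38.

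Counts were tested with edgeR 4.0.16 (R 4.3.3) over all features, with TMM scaling for spliced reads per gene, library totals for intronic reads, and a model of both kinds of read for ratios. SEs were approximated from the F statistic. The tests were tested on simulated counts, in which median effect sizes were close to the true ones, but the ratio test of single introns missed most changes, large ones included, and the other intronic tests missed most small ones; a first requirement on the share of large changes recovered was not met by the ratio test and was replaced by ones on effect size and false calls. Intron and gene calls that did not pass therefore do not show a lack of change.

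The members, lists and tests were chosen with earlier results of these data known. Genes named were those that passed, the 5 with the most spliced reads per intron, for introns the 6 smallest adjusted p in either direction of each test and the 3 genes of each list with the smallest adjusted p; COL28A1 and other genes and introns were added after their values were seen. The values of 1 tested member are not reported here.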

Additional observations from a re-analysis of the deposited data

How the results depend on the processing

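With 2 libraries per group and few reads per intron, single-intron results are the least certain. All 20 genes called by spliced reads kept their direction in every setting tried, and 11 to 12 falls and 4 to 6 rises passed when 1 library was left out; with library totals, 2 rises passed. The higher intronic introns numbered 9 of 49 with TMM of the intronic reads, against 21.4% of all introns tested. They numbered 8 of 258 with a mean of at least 1 read (4.33% of all) and 7 of 25 without annotated exons (55.5% of all). The lower ones numbered 5 of 49 with the replicate block (4.79% of all introns tested), 2 of 49 with DESeq2 (2.91%) and 18 of 49 with TMM (19.3%). They numbered 1 of 258 with a mean of at least 1 read (0.29%) and 2 of 25 without annotated exons (3.72%). Without annotated exons only 9 of the 22 called introns were tested, and all 9 kept their direction. Counts of intronic calls with 1 library left out are not compared, since 1 group then had 1 library. Without 1 H3B-8800 library this test lost its power over all introns. Higher ratios numbered 3 with at least 20 reads of each kind and 4 without annotated exons, where fewer introns were tested, and lower ratios 0 in both, and 1 to 2 when 1 library was left out. With library totals, the lists had 3 rises and 5 falls of 17 genes (synthesis) and 0 rises of 9 (processing). They had 5 falls of 10 (receptors) and 4 rises and 5 falls of 15 (other matrix). Over all 9468 genes tested, 2230 then rose and 3927 fell. With TMM of the intronic reads, 20 of the 22 called introns kept their direction; the exceptions were COL5A1 intron 4 (-0.033) and LAMB1 intron 24 (-0.028), which no longer passed. Other changes of sign, in results that did not pass, were COL4A1 spliced reads (-0.26 to 0.97 when 1 library was left out, lowest without DMSO replicate 2), COL4A2 (-0.31 to 0.68 when 1 library was left out, lowest without DMSO replicate 1, -0.065 with library totals, -0.11 without annotated exons) and COL6A3 (-0.0025 to 0.063 when 1 library was left out, lowest without DMSO replicate 1, -0.14 with library totals). Without annotated exons the gene ratio was 1.17 in COL16A1, which then passed, and -0.091 in COL18A1. The cause was not tested. Same-numbered libraries did not deviate together (correlation 0.081 over 9468 genes), so the numbers were not taken as pairs; with the replicate block 6 members were higher and 13 lower by spliced reads.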
